A study of Mus musculus with 16 samples.

Results

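Neurons that carried transcripts of Gad1 or Gad2 were 200 of 1345 neurons (14.9%) and 0.814% of the 24578 barcodes kept from the mouse cortex, out of 48000 barcodes in all 16 deposited tables. A barcode was a member when it had 200 to 7000 detected genes, at least 2 unique molecular identifiers (UMIs, each standing for a captured transcript) summed over the neuronal genes Meg3, Syt1, Snap25, Chgb, Erc2, Scn2a, Grin2a and Grin2b, at least 1 UMI of Gad1 or Gad2, and at most 1 UMI summed over the glial and vascular genes Cldn5, Flt1, Mag, Mog, Pdgfra, Aqp4, Gja1, Cx3cr1 and P2ry12. The 1145 neurons that met the same conditions with no UMI of either Gad gene were the comparison. These 19 genes chose the cells, so their levels are given as a description and none of them was tested between the classes of neuron.

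Gad1 (GENCODE gene on the plus strand of mouse chromosome 2, mm10, chr2:70553072-70602014) and Gad2 (plus strand, chr2:22622205-22693874) encode the glutamate decarboxylases, which make GABA, the main inhibitory transmitter of the adult brain. Slc32a1 loads GABA into synaptic vesicles. In the neocortex GABAergic cells are mostly local interneurons, specified by Dlx and Lhx6 transcription factors and sorted into classes by Pvalb, Sst, Vip and Lamp5. Projection neurons of the striatum, which use Penk, Ppp1r1b and the dopamine receptors, and granule and periglomerular cells of the olfactory bulb, which use Meis2 and Sp8, are GABAergic as well.

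Cells came from 17-month-old mice by Drop-seq, in which droplets pair cells with barcoded beads, with 1 library per mouse. THY-Tau22 mice were heterozygous for a human 4-repeat tau transgene with the mutations G272V and P301S, both linked to frontotemporal dementia, and wild-type (WT) mice were littermates. The transgene is driven by a Thy1 promoter, so it marks neurons that use that promoter rather than all neurons, and transgene reads were not analysed separately here. The neocortex of 1 hemisphere was taken after subcortical structures, hippocampus and olfactory bulb had been removed, and was dissociated into whole cells. The libraries used were from males (3 WT and 3 THY-Tau22) and females (3 WT and 5 THY-Tau22).

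The tables held 1041675 to 2237505 UMIs each. Replicate 3 of the WT males and replicate 4 of the THY-Tau22 males shared 2952 of 3000 barcodes, against 3 to 12 for the other pairs of tables, so the same library stands under both labels and both tables were left out. No barcode of a Gad neuron occurred in more than 1 of the libraries used. The same animal number stands in the titles of replicate 1 of the WT males and replicate 1 of the THY-Tau22 females. In all, the 200 cells held 163456 UMIs. The median Gad neuron held 606.5 UMIs (298 to 3637) and 356.5 detected genes (203 to 1613), against 661 UMIs and 355 genes in the median neuron without Gad.

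Most members rested on few Gad transcripts. In 111 of the 200 cells a single Gad UMI was found, 41 cells held 2, 23 held 3 and 25 held 4 or more, with 10 as the highest. Gad2 alone was seen in 100 cells, Gad1 alone in 59 and both genes in 41. Just inside the neuronal threshold were 11 cells with 2 UMIs of the neuronal genes, and just outside it 14 barcodes with 1 UMI. Just inside the threshold on other cell types were 35 cells with 1 glial or vascular UMI, and just outside it 9 barcodes with 2. Among the neuronal genes, Meg3, a long noncoding RNA, had a UMI in 180 cells and Syt1, the calcium sensor of vesicle release, in 147. A Gad UMI was also found in 19 of 6052 microglial barcodes (0.314%, median depth 547 UMIs), which should lack the enzymes. In 7 of these there were 2 or more Gad UMIs. Microglial barcodes had no limit on neuronal genes, so free RNA and droplets that held a neuron as well cannot be told apart.

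Markers that the rule did not use matched a GABAergic identity. Slc32a1, the vesicular GABA transporter, was detected in 37 Gad neurons (18.5%, exact 95% interval 13.4 to 24.6%), 0.961% of neurons without Gad and 0.0826% of microglial barcodes. Dlx6os1, a long noncoding RNA of the Dlx5 and Dlx6 locus, was found in 55 cells (27.5%) against 4.45% of neurons without Gad, and the homeobox gene Dlx1 in 32 cells (16.0%) against 2.18%. Erbb4, the neuregulin receptor of interneurons, was detected in 26 cells (13.0%) against 1.57%. Any UMI of the 20 listed glutamatergic genes, several of which GABAergic neurons also use, was found in 146 Gad neurons (73.0%) and 70.2% of neurons without Gad. Single members differed. Slc17a7, which loads glutamate into vesicles, had a UMI in 2 Gad neurons (1.0%) against 10.7% of neurons without Gad, Neurod6 in 1 cell (0.5%) against 7.86%, and Emx1 and Fezf2 in 0 of 200, which allows a share of up to 1.5% of cells with a UMI. Camk2b was found in 71 Gad neurons (35.5%) against 25.9%. Intervals and these limits cover counting error only, and limit cells with a UMI, not cells that express the gene.

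The class lists of cortical interneurons were found in part, while the genes that name the Pvalb, Sst and Vip classes were at 0 or 1 cell. Any UMI of the Pvalb list was found in 38 of 200 Gad neurons (exact 95% interval 13.8 to 25.1%) against 9.34% of neurons without Gad, mostly through Kcnc1 (19 cells), a potassium channel, and Tac1 (14 cells), a tachykinin precursor. The Sst list was found in 18 cells (9.0% against 4.63%), the Vip list in 23 (11.5% against 4.19%) and the Lamp5 and Sncg list in 55 (27.5% against 24.2%). Astrocytic barcodes carried the Vip list in 37.6%, so here that list does not mark Vip neurons alone. Pvalb itself, the calcium buffer of fast-spiking basket cells, was seen in 0 of 200 Gad neurons, which allows a share of up to 1.5% of cells with a UMI. Sst, Vip and Lhx6 were each seen in 1 cell. Any UMI of Pvalb, Sst, Vip or Lamp5 was found in 16 cells (8.0%) against 6.46% of neurons without Gad, and 14 of those 16 cells carried Lamp5, which itself was as frequent without Gad (7.0% against 6.11%). Npy, a neuropeptide, was found in 12 cells (6.0% against 1.05%), the receptor Kit in 16 cells (8.0% against 0.611%) and the transcription factor Sp8 in 7 cells (3.5%, none of the 1145 neurons without Gad).

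Meis2 was the most widely detected of these markers. This homeobox gene (minus strand, chr2:115863064-116065839) was seen in 101 Gad neurons (50.5%, exact 95% interval 43.4 to 57.6%) from 13 libraries, against 15.8% of neurons without Gad and 1.06% of microglial barcodes. Astrocytic barcodes also carried it, in 14.3%. Penk (minus strand, chr4:4133531-4138819), the precursor of the enkephalin peptides, was seen in 31 cells (15.5%) from 12 libraries against 3.23% and 0.0991%, with up to 19 UMIs in a cell. When every cell was thinned to 500 UMIs, leaving out shallower cells (139 Gad neurons remained), Meis2 was at 39.8% against 10.8%, Penk at 13.4% against 2.15% and Slc32a1 at 12.5% against 0.674%.

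Other genes of striatal projection neurons were present at lower shares. Rgs9, a regulator of G protein signalling, and the phosphodiesterase Pde10a were each detected in 32 Gad neurons (16.0%), against 3.76% and 7.86% of neurons without Gad. Ppp1r1b, an integrator of dopamine signals, was detected in 13 cells, Drd2 in 5, Drd1 in 4 and Adora2a in 2. Bcl11b, a transcription factor shared by striatal, interneuron and deep-layer cortical neurons, was seen in 56 cells, against 9.26% of neurons without Gad. The label of the cells as neurons with GABA synthesis thus matched their markers, while Pvalb, Sst and Vip themselves were seen in 0 or 1 cell and other genes of their lists in more.

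**Figure D1:**
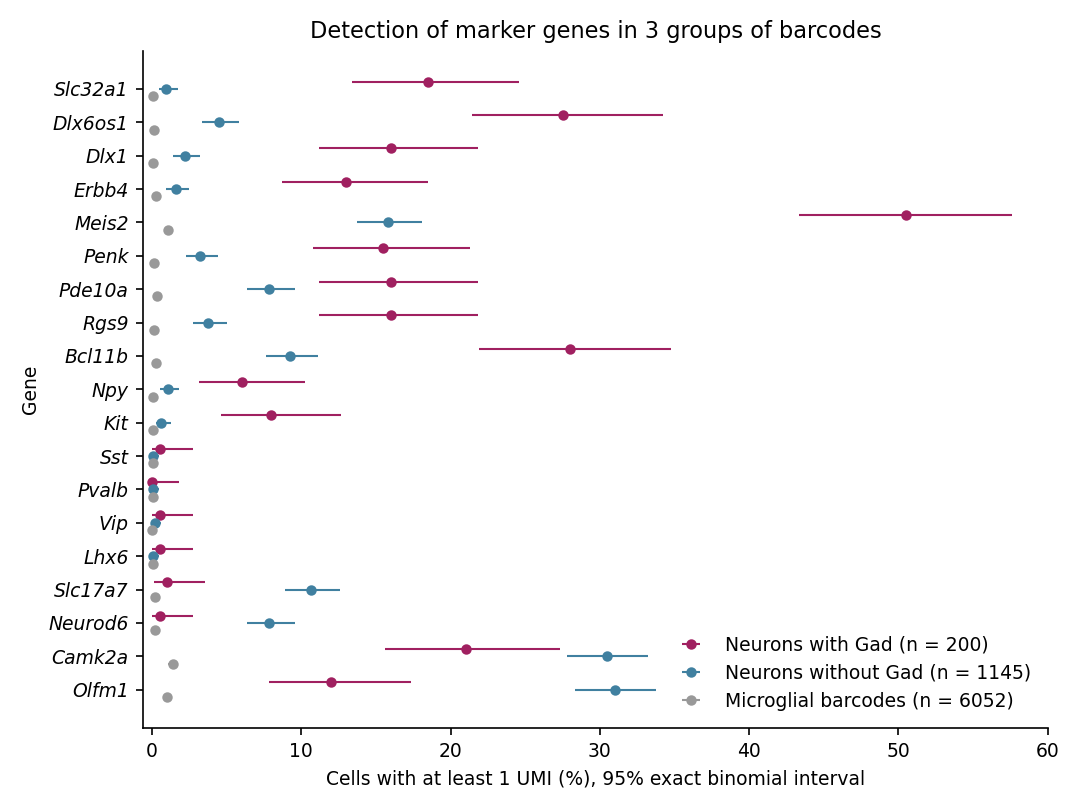
Percent of cells with at least 1 UMI of each marker gene in Gad neurons, neurons without Gad and microglial barcodes, with exact 95% binomial intervals. Meis2 reached 50.5% of Gad neurons, and Slc32a1 18.5%, while Pvalb was at 0 of 200 cells.

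The detected markers overlapped in part within cells. Of the 31 cells with Penk, 22 also carried Meis2, 5 carried Slc32a1, 4 carried Dlx6os1 and 1 carried Npy. Of the 37 cells with Slc32a1, 22 carried Meis2, and of the 55 with Dlx6os1, 26 did. At these depths a gene without a UMI in a cell cannot be called absent from it.

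Meis2 was spread over the mice. It was found in 9 of 24, 9 of 18 and 5 of 8 Gad neurons of the WT males, and in 1 of 6, 6 of 10 and 1 of 6 of the THY-Tau22 males. In the WT females it was found in 0 of 3, 2 of 4 and 14 of 30 cells, and in the THY-Tau22 females in 8 of 13, 11 of 27, 15 of 21, 11 of 14 and 9 of 16. Only WT female replicate 1, with 3 Gad neurons, had none.

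The share of neurons with Gad was lower in THY-Tau22 than in WT males and, on average, higher in THY-Tau22 than in WT females. The female difference did not pass its test, and the male test, with 3 libraries against 3, could not have passed. In WT males the share was 20.7% (24 of 116 neurons), 14.2% (18 of 127) and 11.0% (8 of 73). In THY-Tau22 males it was 8.82% (6 of 68), 9.35% (10 of 107) and 6.90% (6 of 87). All 3 THY-Tau22 males were below all 3 WT males, but not when neurons were thinned to 500 UMIs (5.14 to 11.4% against 10.2 to 15.2%). The library left out had 21.8% in its table labelled THY-Tau22 male. In WT females it was 5.36% (3 of 56), 14.8% (4 of 27) and 14.5% (30 of 207), and in THY-Tau22 females 15.9% (13 of 82), 26.5% (27 of 102), 17.8% (21 of 118), 29.2% (14 of 48) and 12.6% (16 of 127). The female groups overlapped, with 1 THY-Tau22 library below 2 of the WT libraries.

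In males the mean share was 8.36% ± 1.29 (SD, n = 3) in THY-Tau22 and 15.3% ± 4.96 (n = 3) in WT, a difference of -6.92 percentage points (exact two-sided permutation test, p = 0.10, the smallest that 3 against 3 allow). It was -3.95 points thinned to 500 UMIs (exact permutation p = 0.30) and -4.91 in cells with no UMI of the 9 excluded genes (exact permutation p = 0.40). With the library left out counted as a THY-Tau22 male it was -3.56 (exact permutation p = 0.429), and as a WT male -7.85 (exact permutation p = 0.0571). In females the mean share was 20.4% ± 7.11 (n = 5) in THY-Tau22 and 11.6% ± 5.37 (n = 3) in WT. The difference was 8.82 points (exact two-sided permutation test, p = 0.161, smallest possible 0.0179). The genotype difference itself differed between the sexes by -15.7 points (exact permutation of genotype within sex, two-sided, 1120 assignments, p = 0.0161), in a test added after the shares were seen. With neurons thinned to 500 UMIs this contrast was -13.6 points (exact permutation p = 0.103), and over all 16 tables as labelled it was -13.3 points (exact permutation p = 0.05). Per library the median Gad neuron held 335 to 1404 UMIs. In a share of recovered cells, the number of such cells in the tissue and their recovery cannot be told apart.

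**Figure D2:**
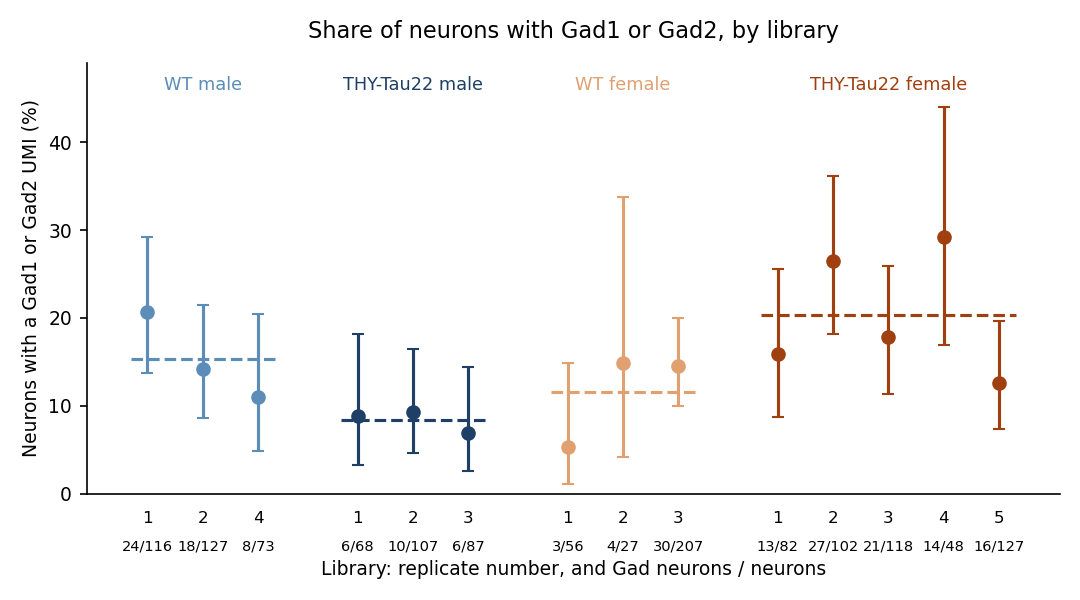
Gad neurons as percent of all neurons in each of the 14 libraries, by group, with exact 95% binomial intervals per library and the group mean as a dashed line. THY-Tau22 males (6.90 to 9.35%) lie below WT males (11.0 to 20.7%), and the female groups overlap.

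To ask which genes set Gad neurons apart from other neurons of the same mouse, UMIs were summed per mouse and class in the 12 mice with at least 5 Gad neurons, which leaves WT females with replicate 3 alone. Of the genes tested, 62 were called (10.8%), 26 higher in Gad neurons (4.53%) and 36 lower (6.27%), by edgeR's quasi-likelihood test with the mouse as a block. A call needed a p under 0.05 after Benjamini-Hochberg adjustment and a log2 difference of 0.5 or more in either direction. Levels below are UMIs of a gene scaled to a total of 1000000 UMIs for the class in a mouse (CPM), and compare the same gene between classes.

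Penk differed most. Its level in Gad neurons ran from 0 to 1635 CPM with a median of 703, and in neurons without Gad from 0 to 236 CPM with a median of 50.6. It was higher in Gad neurons in 11 of 12 mice, by 3.27 ± 0.34 (SE) on the log2 scale (edgeR adjusted p = 7.88e-12). With these levels Penk could enter the genes tested through the counts of Gad neurons alone, so its call is no independent evidence of identity. Of 31 alternative settings 28 gave a value for Penk, and the call held in those 28. Penk had no value with at least 2 Gad UMIs per cell, or with barcodes of at least 500 UMIs. Meis2 ranged from 228 to 3186 CPM (median 1378) in Gad neurons and from 99.3 to 886 CPM (median 263) in the others. It was higher in 12 of 12 mice, by 1.98 ± 0.21 on the log2 scale (edgeR adjusted p = 8.98e-12), although the 2 ranges overlapped between mice.

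Scg2, a secretogranin of dense-core vesicles, was at a median of 830.2 CPM against 261, higher in 10 of 12 mice (log2 fold change 1.28 ± 0.22, edgeR adjusted p = 9.46e-06). Pcp4, which binds calmodulin, was at a median of 803 against 349 CPM (1.16 ± 0.24). Rab3c, a vesicle GTPase, rose by 1.07 ± 0.25 on the log2 scale, and Dgkb, a diacylglycerol kinase, by 1.02 ± 0.24. Apc, a scaffold of Wnt signalling that binds microtubules, was at a median of 1680 against 637 CPM (log2 fold change 1.10 ± 0.19). Pnmal2 (1.01 ± 0.23) and Ndrg4 (0.89 ± 0.23) were also called. Atp1b1, a subunit of the sodium pump, was at a median of 2502 against 1496 CPM and was higher in 11 of 12 mice (log2 fold change 0.64 ± 0.16, edgeR adjusted p = 0.00386), a call lost with barcodes of at least 500 UMIs (0.53, edgeR adjusted p = 0.0606).

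Ranges were compared between the classes for the named genes only, not for all genes tested. Ptn, the secreted growth factor pleiotrophin (minus strand, chr6:36714929-36810220), had ranges that did not meet. It was at 0 to 656 CPM in Gad neurons (median 281) and at 750 to 1702 CPM in neurons without Gad (median 1143). The log2 fold change was -2.07 ± 0.23 (12 of 12 mice lower, edgeR adjusted p = 5.13e-11). Several called genes are known from glutamatergic cortical neurons. A gene could pass the count filter through the sums of 1 class alone, so calls like these are no independent evidence of identity. Olfm1, an extracellular olfactomedin, was at a median of 160 against 703 CPM (log2 fold change -2.23 ± 0.28, edgeR adjusted p = 1.52e-09). Enc1, an actin-binding protein, was at 50.6 against 424 CPM (-2.05 ± 0.38), and Nptxr, a receptor for neuronal pentraxins, at 51.6 against 344 CPM (-1.92 ± 0.38). Nrxn3, a presynaptic adhesion molecule, was higher in Gad neurons in 9 of 12 mice (0.63 ± 0.21, edgeR adjusted p = 0.0402). Ptprd, a receptor phosphatase of synapses (-1.61 ± 0.29), and Dmd, dystrophin (-1.49 ± 0.27), were also lower.

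Glial transcripts were lower in Gad neurons too. Slc1a2, the main glutamate transporter of astrocytes, was at 86.0 to 953 CPM (median 386) in Gad neurons and at 558 to 2157 CPM (median 974) in the others, and was lower in 12 of 12 mice (log2 fold change -1.50 ± 0.23, edgeR adjusted p = 7.23e-07). Apoe, the lipid carrier of glia, was at a median of 124 against 378 CPM (-1.88 ± 0.32). All 4 tested astrocyte genes outside the rule were called lower, with a median log2 fold change of -1.23 against -0.04 for all genes tested. Both tested genes of oligodendrocyte precursors, Ptprz1 (-1.43 ± 0.30) and Tnr (-1.19 ± 0.33), were lower as well. Any astrocyte gene of that list was seen in 59.0% of Gad neurons and 74.1% of neurons without Gad, any oligodendrocyte gene in 52.0% and 56.9%, any precursor gene in 23.0% and 31.2%, any other microglial gene in 16.5% and 21.6%, and any other endothelial gene in 17.5% and 23.5%. The part of such RNA in the class differences was not tested. With cells that held no UMI of the 9 excluded genes, Slc1a2 (-1.44) was still called, as were Penk (3.40), Meis2 (2.06) and Ptn (-2.17), while Ptprz1 fell short of the threshold (-0.77, edgeR adjusted p = 0.162).

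**Figure D3:**
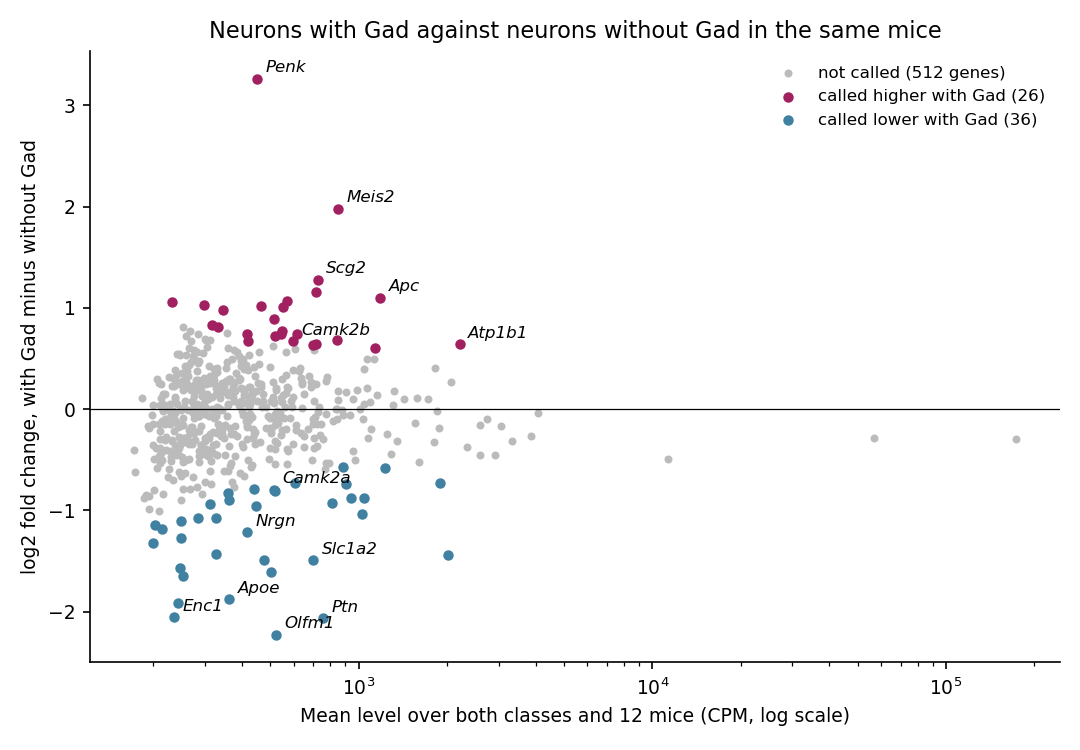
Log2 fold change of Gad neurons over neurons without Gad against mean expression for the genes tested over 12 mice, with called genes coloured by direction and the leading ones named. Penk (3.27) and Meis2 (1.98) lie at the top and Olfm1 (-2.23) and Ptn (-2.07) at the bottom.

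**Figure D4:**
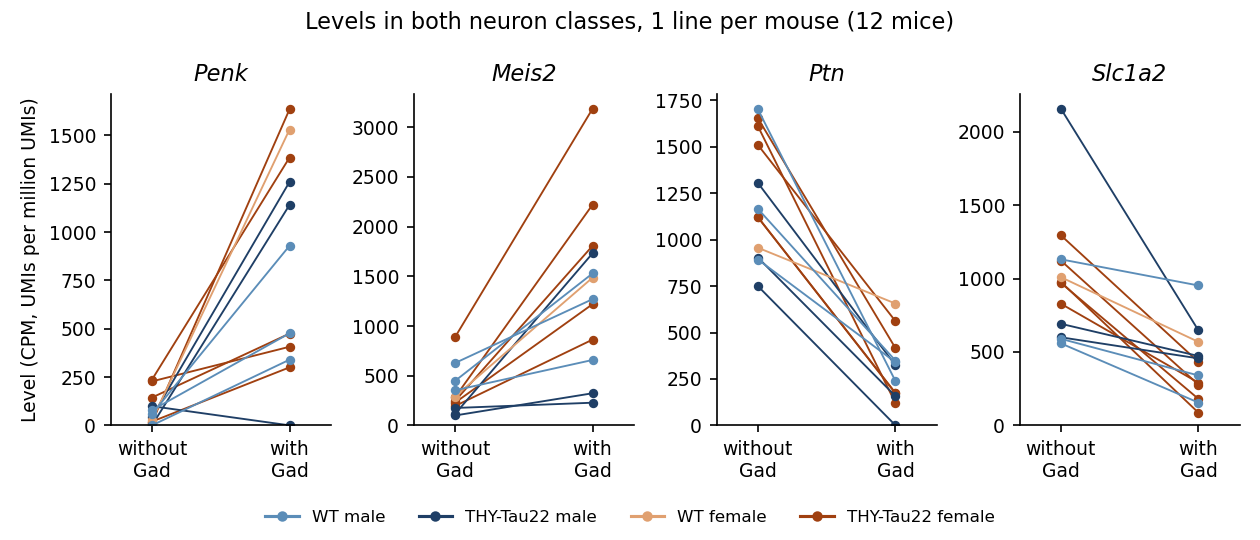
CPM of leading genes in neurons without Gad and in Gad neurons of each of 12 mice, with a line joining the values of a mouse, coloured by group, on linear axes. Meis2 rises in all 12 mice and Ptn falls in all 12.

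By list, to be read against the 4.53% of all genes called higher and 6.27% called lower, 1 of the 2 tested genes of striatal projection neurons (11 listed) was called higher, Penk, and the other, Foxp1, was at 0.56 ± 0.30 and was not called. Of 3 tested genes of immature neurons, Meis2 was higher and Stmn2, which destabilises microtubules, lower (-1.07 ± 0.31). Of 5 tested glutamatergic genes, 3 were called lower, among them Nrgn (-1.22 ± 0.30) and Camk2a (-0.80 ± 0.27), with a list median of -0.80, and Camk2b was called higher (0.67 ± 0.21). Of 8 tested genes of vesicle release, 1 was called higher, Nrxn3, and 1 lower. None of 2 tested GABA receptor subunits and none of 4 tested ion channels was called, with Gabrb1 at -0.09 ± 0.29. Of 6 chaperones 1 was called, Hsph1 (0.81 ± 0.26), and of 3 immediate early genes 1, Jun (-0.81 ± 0.26). Leaving out single mice ended some of these calls: 8 for Nrxn3 (0.47 to 0.79 on the log2 scale, highest edgeR adjusted p = 0.209) and Hsph1 (0.73 to 0.94), 7 for Camk2a (-1.06 to -0.62), 4 for Camk2b (0.55 to 0.77) and Jun (-1.09 to -0.68), and 1 for Stmn2 (-0.89, edgeR adjusted p = 0.0704, without THY-Tau22 female replicate 3). The 6 tested mitochondrial mRNAs had a median of -0.45, were all lower and stayed under the fold threshold. Genes of GABA handling, of interneuron transcription factors and of the interneuron classes were all below the count filter, so they are described by detection alone.

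Among the 8 genes the study names for neurons, which were chosen on these same mice and give no independent evidence, 7 could be tested between the classes, since Meg3 was part of the rule. Atp1b1 was higher in Gad neurons and Sparcl1 lower (-0.88 ± 0.21).

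To ask how the tau transgene affected Gad neurons, THY-Tau22 and WT sums were compared in the same 12 libraries, with 3 against 3 males and 5 THY-Tau22 females against a lone WT female, which was assumed to vary like the other groups. Titles of that WT female (replicate 3) and of replicate 5 of the THY-Tau22 females hold the code MB22, all others MB21, so in females the code and the genotype can hardly be told apart. Of 1222 genes none was called in males (0%), in females, with the sexes combined, or for the interaction between genotype and sex by edgeR's quasi-likelihood test. At an unadjusted p under 0.05 there were 93 genes in males (7.61%), 25 in females (2.05%), 68 with the sexes combined (5.56%) and 48 in the interaction (3.93%). DESeq2 called 3, 0, 1 and 0 genes. In simulated data of the same size, 13.4% of genes changed by 2 on the log2 scale were recovered in males and 6.10% in females, so changes of that size would mostly have been missed.

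In males the 2 genes with the smallest p were of mitochondrial origin, as was the first gene with the sexes combined. The transcript mt-Cytb, which encodes cytochrome b of the respiratory chain, was at 1123, 635 and 849 CPM in Gad neurons of WT males and at 2965, 2361 and 9532 CPM in those of THY-Tau22 males. It was at 525 CPM in the 1 WT female library with at least 5 Gad neurons and at 1807, 1220, 2881, 2078 and 2157 CPM in THY-Tau22 females. The male groups did not overlap, and all 5 THY-Tau22 females were above that WT female, but WT female replicates 1 and 2, with 3 and 4 Gad neurons, held 2717 and 9842 CPM. The log2 fold change of mt-Cytb was 2.04 ± 0.53 in males (edgeR adjusted p = 0.157) and 1.90 ± 0.48 over both sexes (edgeR adjusted p = 0.106), so neither was called. Without THY-Tau22 male replicate 3, which had 6 Gad neurons, the male value of mt-Cytb was 1.06 (edgeR adjusted p = 0.816) and the value over both sexes 1.45 (edgeR adjusted p = 0.529). Without replicate 1 or 2 of the THY-Tau22 males, replicate 4 or 5 of the THY-Tau22 females or replicate 3 of the WT females, mt-Cytb was called in males (2.07 to 2.43, edgeR adjusted p = 0.0102 to 0.0374), and over all the alternatives tried it ran from 0.82 to 2.84 in males (edgeR or DESeq2 adjusted p = 0.00113 to 0.896). Over both sexes mt-Cytb ran from 1.02 to 2.33, the lowest with every mouse that had at least 1 Gad neuron (edgeR adjusted p = 0.798).

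A second transcript of the same kind, mt-Nd1, which encodes a subunit of NADH dehydrogenase, was at 1200, 1111 and 849 CPM in WT males and at 3421, 2204 and 10501 CPM in THY-Tau22 males (log2 fold change 1.90 ± 0.52, edgeR adjusted p = 0.175). Without THY-Tau22 male replicate 3 the value of mt-Nd1 was 0.87 (edgeR adjusted p = 0.872). In THY-Tau22 females mt-Nd1 was at 1979, 1278, 2281, 2355 and 1769 CPM against 1443 CPM in the WT female tested. All 6 tested mitochondrial mRNAs had positive values in males. Their median was 1.29 on the log2 scale against -0.30 for all genes tested. None was called. Summed over the list they made up 5606 to 9526 CPM in WT males and 15586 to 45719 CPM in THY-Tau22 males. Neurons without Gad moved with them: mt-Cytb was at 1518, 1467 and 929 CPM in WT males and at 3024, 2922 and 4540 CPM in THY-Tau22 males. Cells with over 5% mitochondrial mRNA were 6 of the Gad neurons, and without them mt-Cytb was at 1.00 in males (edgeR adjusted p = 0.789). With DESeq2's size factors the median of all genes in males lay 0.39 higher on the log2 scale, and mt-Cytb and mt-Nd1 remained positive.

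**Figure D5:**
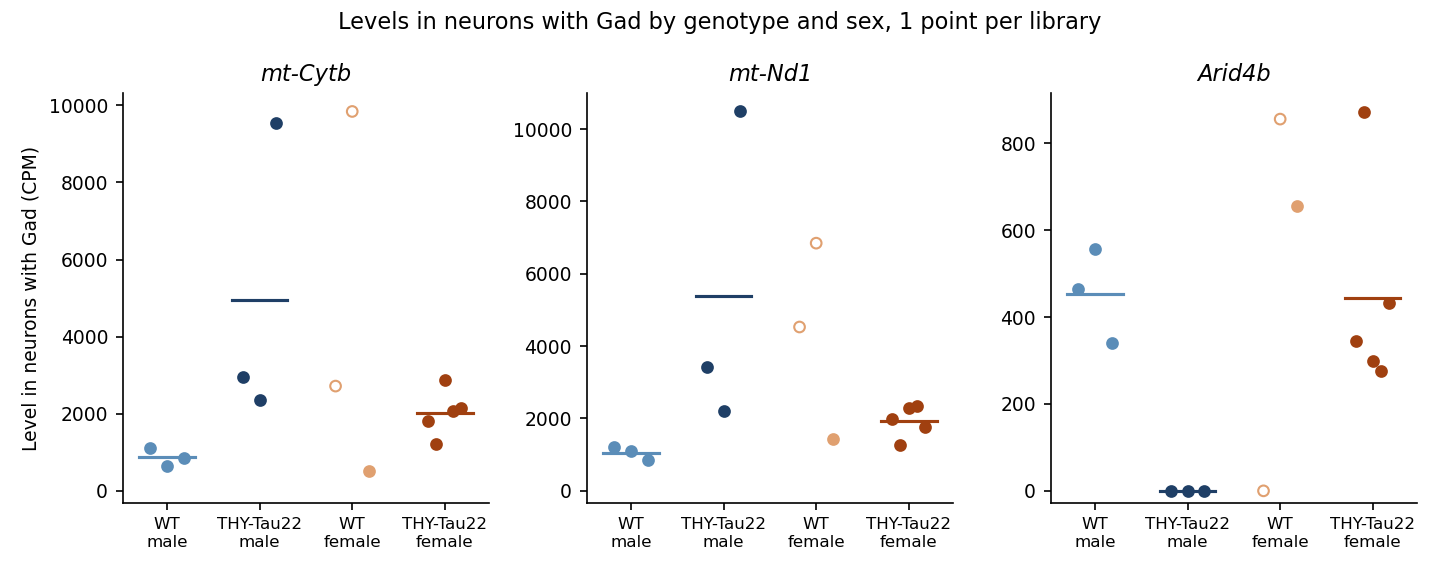
CPM in Gad neurons of each library by group for mt-Cytb, mt-Nd1 and Arid4b, with the group mean as a line where more than 1 library had at least 5 Gad neurons, and open circles for the WT female libraries with fewer. For mt-Cytb the WT male libraries lie at 635 to 1123 CPM and the THY-Tau22 male libraries at 2361 to 9532 CPM.

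The other genes with the smallest p in males were lower in THY-Tau22. Arid4b, a chromatin-associated protein, had 21 UMIs of 44316 in WT males and 0 of 16927 in THY-Tau22 males, and was not called. Against a floor of 3 UMIs over the group it was 2.67-fold lower or more. That limit covers counting error in the pooled UMIs only, not the spread between mice. Chd4, a chromatin remodeller (-2.74 ± 0.83), and Arpp21, a phosphoprotein regulated by cyclic AMP (-1.84 ± 0.61), were not called. Over both sexes the list held Gm42418 (-1.29 ± 0.39), Supt6 and Rsl1d1. Supt6 had 17 UMIs in WT males and 0 in THY-Tau22 males, and Rsl1d1 had 15 and 0. In females, Acat1 was at -3.04 ± 1.19 and Myh10 at -1.76 ± 0.70, with edgeR adjusted p = 0.992 for every gene tested. The 5 tested genes of striatal projection neurons (11 listed) were all lower in THY-Tau22 males, with a median of -1.84 on the log2 scale (-0.30 for all genes), none of them called. Against the lone WT female they were all lower in THY-Tau22 females too, with a median of -1.18 (0.00 for all genes). Summed over the 11 listed genes, the male groups overlapped, at 323 to 3463 CPM in THY-Tau22 and 2888 to 3414 CPM in WT. THY-Tau22 females were at 480 to 3883 CPM and that WT female at 4372 CPM. The smallest group in these fits held 1 library, so a high level in 1 library was enough for a gene to pass the count filter. Which listed genes were tested thus depended on the levels compared, and their shared direction is no independent evidence. Xrn2, Mga and Npy had the next smallest p in females, and Nop56, Tac1, Cpne6 and Dnttip2 the smallest for the interaction with sex. Penk was at -0.23 ± 0.65 and Meis2 at -0.73 ± 0.63 in males.

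Mapt, the mouse gene of tau itself, was detected in 42 Gad neurons (21.0%) and 23.3% of neurons without Gad. Between the classes its log2 fold change was -0.61 ± 0.27 (edgeR adjusted p = 0.132), and between genotypes -0.53 ± 0.92 in males and -0.98 ± 0.63 over both sexes, none called. Thy1, whose promoter drives the transgene, had 11 UMIs in 11 Gad neurons (5.5%) against 8.73% of neurons without Gad, too few to test. Of the genes the study names, Sparcl1 was at 0.76, Snhg11 at 0.76, Strbp at 0.23, Atp1b1 at 0.15, mt-Rnr2 at -0.79 and Meg3 at 0.10 in males, none of them called.

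Whether the genotype difference itself differed between Gad neurons and neurons without Gad was asked in the same mice with an interaction term. None of the genes was called (0%), 27 had an unadjusted p under 0.05 by edgeR, the smallest adjusted p was 0.800, and DESeq2 called none with 17 at an unadjusted p under 0.05. Nrgn, a postsynaptic calmodulin-binding protein, had the smallest p, at -2.33 ± 0.71 on the log2 scale. For mt-Cytb the difference was 0.97 ± 0.39. The genotype values of Gad neurons were thus not shown to be particular to them.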

How the data were processed

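Drop-seq UMI counts per gene and barcode were deposited by the authors as 1 table per sample, with no normalization. The submitters' processing notes name the build mm10, reads went through the standard Drop-seq pipeline, and the aligner is not given in the sources used here. Cells were chosen by the rule stated above from 14 libraries, no doublet caller was run, and groups follow the sample labels. The members and gene lists were chosen with earlier results of these data known.

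UMIs were summed per mouse and class. The 2 WT females with fewer than 5 Gad neurons did not enter the fits, although the design counted on 14 libraries. Genes were kept by edgeR's filterByExpr with min.count 5, scaled by TMM and tested with edgeR 4.0.16 (quasi-likelihood, R 4.3.3, limma 3.58.1). DESeq2 1.42.0 was an alternative. Calls used the thresholds given above (0.05 and 0.5). Shares were compared by exact permutation (Python 3.11.15, numpy 2.4.6), and exact binomial intervals came from scipy 1.17.1. Libraries are from separate mice, except that 2 titles share an animal number, and replicate numbers given in accession order pair nothing. In the class comparison the mouse was a block, because both sums came from the same animal.

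Genes named in the text were the called ones with the smallest adjusted p (up to 10 per direction), examples from the lists, up to 5 genes with the smallest p where none was called, the 8 genes the study names for neurons, and Mapt and Thy1. Gene positions are from GENCODE for GRCm38. On simulated data of the same size, the class comparison recovered 66.3% of genes changed by 1 and 100% of those changed by 2 on the log2 scale (646 genes), with 7 false calls among unchanged genes. Results of some genes the rule would name are not reported here.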

Additional observations from a re-analysis of the deposited data

Results flagged for a closer look

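In Gad neurons of the 5 THY-Tau22 females, 5 of the 25 values checked had 1 library far from the other 4. It was not the same library for each value, and chance flags about 1 in 20 groups. The highest value was 871 CPM for Arid4b (next 431), 1640 CPM for Arpp21 (next 1020) and 831 CPM for Nop56 (next 345). For Tac1 it was 431 CPM (next 58.1) and for Xrn2 970 CPM (next 300.1). These levels rest on few UMIs per library.

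The genotype difference in the share of neurons with Gad was opposite in the sexes, by -15.7 percentage points (exact permutation of genotype within sex, two-sided, p = 0.0161, 6 males and 8 females). The test was added after the shares had been seen, so it is no independent evidence, and neither sex passed its own test. The share was lower in 3 of 3 THY-Tau22 males than in every WT male, but after thinning to 500 UMIs the male groups overlapped (5.14 to 11.4% and 10.2 to 15.2%), as the female groups did without it. The table labelled THY-Tau22 male replicate 4, left out, was at 21.8%.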

How the results depend on the processing

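The 62 calls between the classes became 40 with a count minimum of 10, 97 with 3, 1004 with no filter, 128 over all 16 tables, 41 without the pair that shares an animal number, 35 without the libraries coded MB22 and 97 with the library found under both labels kept as a THY-Tau22 male. Leaving out 1 mouse gave 48 to 85. With no replicate block for the mouse there were 46, all among the 62. With no filter Atp1b1 (-0.16), Camk2b (-0.13) and Nrxn3 (-0.16) turned direction. Leaving out 1 mouse ended the call of Camk2a, Camk2b, Hsph1, Jun, Nrxn3 or Stmn2 in at least 1 case. Nptxr and Tnr were called in 12 of these 14 fits and were below the count filter in the others. No other of the 31 named genes lost its call.

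The 0 genotype calls in males became 3 with DESeq2, 2 with relative log expression factors, a count minimum of 10, every mouse with at least 1 cell or without the libraries coded MB22, and 1 without the pair that shares an animal number. Leaving out 1 library gave 0 to 2 (2 without THY-Tau22 male replicate 1 or 2, THY-Tau22 female replicate 4 or 5, or WT female replicate 3), in each case mt-Cytb and mt-Nd1. Over both sexes DESeq2, relative log expression factors, a count minimum of 10 and the animal-number pair gave 1 call each, and leaving out 1 library 0 to 2. For the interaction of genotype with class, leaving out 1 library gave 0 to 1 (Nrgn, without THY-Tau22 female replicate 5). Females and the interaction with sex had 0 in every alternative that could be fitted. No paired analysis was possible because the labels give the genotype groups no replicate numbers, only accession order. Genotype contrasts with an empty group could not be fitted: all but the female one with at least 2 Gad UMIs, and all but the male one without WT female replicate 3 or the libraries coded MB22.

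The share contrast between the sexes missed 0.05 (exact permutation tests) as percent of kept barcodes (-0.865 points, p = 0.05), with no excluded UMI (-14.2, p = 0.0509), thinned (-13.6, p = 0.103), over all 16 tables (-13.3, p = 0.05) and with that library as a THY-Tau22 male (-12.4, p = 0.0776). Leaving out 1 library gave -17.9 to -12.6 for it, -9.08 to -4.21 in males (-4.21 without WT male replicate 1) and 5.72 to 10.8 in females (5.72 without WT female replicate 1). With at least 2 Gad UMIs the female difference was 6.81 points (exact permutation p = 0.0357). Of the 200 cells, 111 rest on 1 Gad UMI. The cause of these changes was not tested.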
